A study of Arabidopsis thaliana with 10 samples.

Results

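A set of 75 genes, of the 33602 in the expression table, was high in triploid seeds and lower when the pollen parent carried suvh7-1. With adm-2 in the pollen parent, the genes kept more than 0.75 of the triploid value. The genes were chosen on the mean RPKM (reads per kilobase of gene scaled to library size) of each cross plus 0.1. That value had to be at least 1.1 in triploid seeds and at least 4 times that of diploid seeds, at most 0.5 of the triploid value in suvh7-1 seeds and above 0.75 of it in adm-2 seeds. Because these values chose the genes, the contrasts between triploid, diploid, suvh7-1 and adm-2 seeds are given for them as descriptions without a test.

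Whole seeds of 20 siliques were harvested at 6 DAP (days after pollination) for each library, with 2 libraries per cross. All mothers were wild-type Landsberg (Ler) plants. Triploid suvh7-1, adm-2 and peg2 seeds (3n suvh7-1, 3n adm-2, 3n peg2) had pollen from Columbia (Col) plants carrying osd1 together with suvh7-1, adm-2 or peg2, so in all 3 crosses the mutant allele came from the father and the maternal copy was intact. Triploid seeds (3n) had pollen from osd1 plants, which make unreduced male gametes, and diploid seeds (2n) had pollen from wild-type Col. The osd1 mutation was found in the Nossen accession and backcrossed into Col, and every triploid cross carried it, so triploidy and paternal osd1 cannot be told apart. Each gene was represented by 1 mutant allele, and suvh7-1 and peg2 are T-DNA insertions.

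Paternal genome excess disturbs the endosperm, the nourishing tissue of the seed, which then stays syncytial instead of forming cells, and the seed aborts. Genes expressed from the paternal allele only, called PEGs, are part of this response, known as the triploid block. SUVH7 is a PEG of the SU(VAR)3-9 homolog family, whose members carry a SET domain and in several cases methylate histones. ADM and PEG2 are PEGs as well. Seeds and reproductive tissues of Arabidopsis also express many short secreted proteins with a signal peptide and a set of cysteines that pair in disulfide bonds, among them the defensin-like and LCR (low-molecular-weight cysteine-rich) families, thionins, lipid-transfer proteins and the S1 self-incompatibility homologs.

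Short secreted proteins supplied the largest annotated class of the 75 genes and their highest values. The coding sequences of 4 of them are shown with the cysteine codons (TGT and TGC) in capitals, to let the spacing of cysteines be compared between LCR81 and LCR23, the LCR members with the lowest suvh7-1 ratios, the neighbouring member LCR22 and the most abundant member AT5G63087. They were read from the TAIR10.1 genome with the RefSeq annotation. AT5G63087 (thionin family) lies at chr5:25304750-25305371 on the plus strand, LCR22 at chr4:14427882-14428265 and LCR23 at chr4:14425441-14425857 on the minus strand, and LCR81 at chr2:10769877-10770485 on the plus strand.
AT5G63087: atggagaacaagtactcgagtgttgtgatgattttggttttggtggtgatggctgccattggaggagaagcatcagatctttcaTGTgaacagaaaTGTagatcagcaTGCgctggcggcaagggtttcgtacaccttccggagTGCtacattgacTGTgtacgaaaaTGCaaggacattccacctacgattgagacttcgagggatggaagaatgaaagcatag
LCR22: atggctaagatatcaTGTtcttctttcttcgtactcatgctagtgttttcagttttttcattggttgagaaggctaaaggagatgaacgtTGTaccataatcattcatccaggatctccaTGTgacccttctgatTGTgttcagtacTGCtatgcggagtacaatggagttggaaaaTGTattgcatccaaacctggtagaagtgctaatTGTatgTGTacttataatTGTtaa
LCR23: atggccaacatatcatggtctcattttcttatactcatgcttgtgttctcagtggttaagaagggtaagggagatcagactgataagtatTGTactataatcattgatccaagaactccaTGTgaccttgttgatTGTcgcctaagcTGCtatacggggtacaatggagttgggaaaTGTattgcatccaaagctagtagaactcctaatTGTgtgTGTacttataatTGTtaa
LCR81: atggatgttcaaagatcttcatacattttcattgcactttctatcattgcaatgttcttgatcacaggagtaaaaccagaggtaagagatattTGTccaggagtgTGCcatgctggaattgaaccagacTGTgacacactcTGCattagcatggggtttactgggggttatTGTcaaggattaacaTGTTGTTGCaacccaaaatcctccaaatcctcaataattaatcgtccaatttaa
The 4 reading frames held 6 cysteine codons of 74 in AT5G63087, 9 of 77 in LCR22, 8 of 77 in LCR23 and 8 of 79 in LCR81. LCR22, LCR23 and LCR81 thus differed by at most 2 codons in length and 1 in their number of cysteine codons. Their sequences were less alike, since LCR81 matched LCR23 in 52.8% and LCR22 in 54% of global alignment columns. That was near the 52.7% between AT5G63087 and the defensin-like gene AT1G77525. LCR81 also had adjacent cysteine codons, which LCR22 and LCR23 lacked.

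Of the 1035 genes at least 4-fold higher in triploid than in diploid seeds, 446 had a suvh7-1 value of at most 0.5 of the triploid one. Among these 446 genes, 75 kept more than 0.75 of the triploid value in adm-2 seeds, 206 had between 0.5 and 0.75 of it, and 165 had 0.5 of it or less. The 446 genes had a median ratio of adm-2 to triploid seeds of 0.547, so the 75 genes form the upper edge of a continuous range of adm-2 values. The opposite combination, at most 0.5 in adm-2 and above 0.75 in suvh7-1 seeds, held for 6 genes. Over all 33602 genes, 3.86% met the limit on the rise in triploid seeds, 3.38% that on suvh7-1 seeds and 93.3% that on adm-2 seeds. Of the 1035 raised genes, 556 were above 0.75 in adm-2 seeds, and their median adm-2 ratio over all 1035 was 0.794. Meeting the adm-2 limit was thus common among raised genes.

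**Figure D1:**
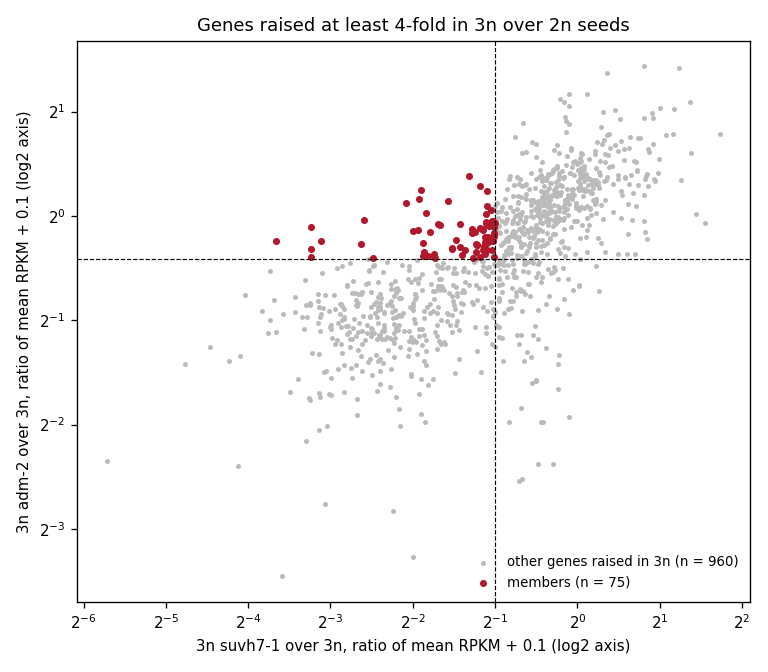
Each point is a gene at least 4-fold higher in 3n than in 2n seeds, at its ratio of 3n suvh7-1 to 3n seeds (x axis) and of 3n adm-2 to 3n seeds (y axis), both of mean RPKM + 0.1 on log2 axes. Dashed lines mark the limits of 0.5 and 0.75, and the 75 members (red) fill the upper left corner, many of them close to one of the lines.

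Across the 75 genes the ratio of suvh7-1 to triploid seeds had a median of 0.427 and ranged from 0.0793 to 0.498. It was between 0.4 and 0.5 in 43 genes and under 0.2 in 8. The ratio of adm-2 to triploid seeds had a median of 0.868, with a range of 0.754 to 1.30, and was above 1 in 11 genes. In all, 43 genes had either a suvh7-1 ratio above 0.45 or an adm-2 ratio under 0.80. After the reduction in suvh7-1 seeds, 65 of 75 genes still had at least 2 times the diploid value. The choice of genes favoured this count, since members had to be raised over the same diploid libraries in triploid seeds. The share among all genes was 5.72%, but most of these were not raised in triploid seeds. The share among the other raised genes was not tested. The median return toward diploid seeds was 31.9% of the log2 difference between triploid and diploid seeds. That share was computed on values plus 0.1, while the median diploid mean of the members was 0.117 RPKM. The added 0.1 therefore weighs on it, and the limits on the rise and on suvh7-1 seeds bounded both of its terms. The suvh7-1 mean lay below the diploid one in 3 genes, AT3G01240, VSP2 (a vegetative storage protein) and AT5G19240.

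Both suvh7-1 libraries were below both triploid libraries for all 75 genes, against 25.8% of all genes, which the choice of genes fixed to a large degree. Both adm-2 libraries were below both triploid libraries for 29 of 75 genes, against 15.8% of all genes, and above them for 4, against 38.9%. The adm-2 limit thus admitted genes with a smaller reduction in adm-2 seeds.

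Genes at the limits differed little from those just outside. AT3G03520 (NPC3, a non-specific phospholipase C) had the highest suvh7-1 ratio among the members, 0.498, and AT4G05497, just outside, had 0.501. CDR1 (AT5G33340, an aspartyl protease known from disease resistance) had the lowest adm-2 ratio, 0.754, against 0.749 for AT5G44830. For the rise over diploid seeds the values were 4.27 in AT5G44585 and 3.94 in AT3G45140, and for the level plus 0.1 in triploid seeds 1.19 in AT4G14276 and 1.08 in AT1G29600.

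Secreted small proteins made up 21 of the 74 members with an annotation, 28.4%. The class was assigned by keywords in the annotated product, without a check for a signal peptide or cysteines. Its S1 homologs AT2G24870, AT5G27238 and AT1G51230 had 0 cysteine codons of 55, 2 of 135 and 4 of 125. Over all annotated genes the share was 2.84%, over all genes raised in triploid seeds 15.4%. Among raised genes at 0.5 or less in both suvh7-1 and adm-2 seeds it was 23.6% (39 of 165), and among those above 0.75 in both 9.09% (28 of 308). The share among genes lowered in both mutants was thus near that of the 75 genes. A count that does not use gene names placed the members slightly below the genes lowered in both mutants. Of 71 members with a coding sequence, 15 (21.1%) had a coding length of at most 450 bases with at least 6% cysteine codons, against 24.8% of raised genes at 0.5 or less in both mutants, 8.14% of those above 0.75 in both and 2.75% of all genes.

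**Figure D2:**
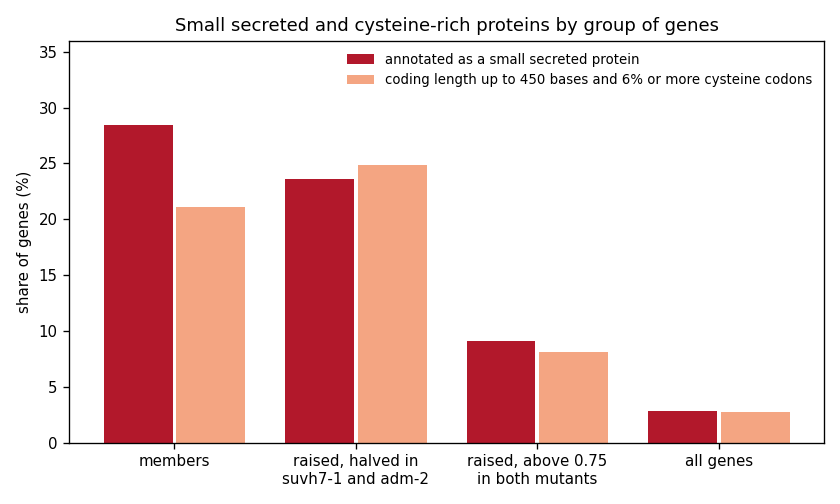
Bars give the share of genes (%) annotated as small secreted proteins (dark red) and the share with a short, cysteine-rich coding sequence (light red), for the members, 2 other groups of genes raised in 3n seeds and all genes. The members and the genes at 0.5 or less in both mutants hold similar shares, 28.4% and 23.6% by annotation, above the 2.84% of all genes.

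The most abundant member was AT5G63087, a thionin family gene. Its RPKM was 507 and 471 in suvh7-1 libraries, 1643 and 1347 in adm-2 libraries, 1916 and 1635 in peg2 libraries, 1513 and 2064 in triploid libraries, and 69.6 and 74.5 in diploid libraries. Values in suvh7-1 seeds were thus apart from all other triploid crosses, whose libraries overlapped, and several-fold above diploid seeds. The defensin-like gene AT1G77525 followed with 489 and 549 in suvh7-1, 984 and 857 in adm-2, 1152 and 942 in peg2, 1052 and 1251 in triploid, and 103 and 111 RPKM in diploid seeds. Together these 2 genes supplied 2565 and 3315 of the summed RPKM of 3588 and 4538 that the 75 genes reached in triploid libraries. Without them the sum over 73 genes was 445 and 449 in suvh7-1, 1076 and 979 in adm-2, 1227 and 1103 in peg2, 1023 and 1223 in triploid, and 28.0 and 34.5 in diploid libraries.

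A pair of genes of the bifunctional inhibitor and lipid-transfer family, whose products fold around disulfide bonds, were also among the 5 highest. AT2G14846 had an RPKM of 33.8 and 31.0 in suvh7-1, 109 and 84.5 in adm-2, 145 and 97.0 in peg2, 90.4 and 116 in triploid, and 0.446 and 0.848 in diploid seeds. AT1G73560 had 59.8 and 59.0 in suvh7-1, 104 and 109 in adm-2, 105 and 113 in peg2, 122 and 133 in triploid, and 1.81 and 1.326 in diploid seeds. For the first gene the adm-2 and triploid libraries overlapped, and for the second both adm-2 libraries were below both triploid ones. The remaining gene of the 5 highest, AT1G63055, is uncharacterized and overlaps AT1G63057. Its RPKM was 53.1 and 49.6 in suvh7-1, 119 and 105 in adm-2, 149 and 141 in peg2, 124 and 152 in triploid, and 2.25 and 2.88 in diploid seeds.

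Defensin-like and LCR genes share the cysteine pattern of antimicrobial peptides and include signals of fertilization. AT5G51845 (DEFL family) had an RPKM of 19.8 and 18.9 in suvh7-1, 57.8 and 49.7 in adm-2, 40.6 and 42.3 in peg2, 36.8 and 51.1 in triploid, and 0.318 and 0.345 in diploid seeds. LCR53 had 9.21 and 12.6 in suvh7-1, 31.5 and 23.9 in adm-2, 22.5 and 18.5 in peg2, 18.3 and 28.6 in triploid, and 1.24 and 2.29 in diploid seeds. For both genes the adm-2 mean was above the triploid mean, with a ratio of 1.22 for AT5G51845 and 1.18 for LCR53, while the adm-2 and triploid libraries overlapped.

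The 10 genes with the lowest suvh7-1 ratio included 5 genes of this class. AT3G45243, of the ECA1 gametogenesis related family of secreted cysteine-rich proteins, had the lowest ratio of all, 0.0793. Its RPKM was 0.468 and 0.206 in suvh7-1, 5.02 and 4.09 in adm-2, 6.38 and 4.59 in peg2, and 4.68 and 6.15 in triploid seeds, and it was listed at 0 in both diploid libraries. LCR81 had 0.0760 and 0 in suvh7-1, 1.11 and 0.784 in adm-2, 1.64 and 0.822 in peg2, 1.71 and 0.702 in triploid seeds, and was also listed at 0 in both diploid libraries. For AT3G45243 and LCR81 both suvh7-1 libraries were below every other triploid library, but LCR81 had the fewest reads of any member. The step between low values implied about 16.5 reads for LCR81 in the lower triploid library. The defensin-like gene AT4G14276, LCR23 and LCR72 were the other 3 genes of the class, with ratios of 0.106, 0.178 and 0.236. AT4G14276 had 0 and 0.0525 in suvh7-1, 0.819 and 0.793 in adm-2, 1.18 and 0.620 in peg2, and 1.03 and 1.15 RPKM in triploid seeds, and was listed at 0 in both diploid libraries. LCR72 had 0.241 and 0.376 in suvh7-1, 1.82 and 1.74 in adm-2, 1.86 and 0.962 in peg2, 1.76 and 1.502 in triploid, and 0 and 0.232 RPKM in diploid seeds, so that its adm-2 and triploid libraries overlapped.

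The S1 self-incompatibility homologs, secreted proteins named after the pollen rejection system of poppy, were represented by 3 genes. AT1G51230 had an RPKM of 0.669 and 0.929 in suvh7-1, 4.51 and 2.97 in adm-2, 2.89 and 2.77 in peg2, and 3.24 and 3.41 in triploid seeds, and was listed at 0 in both diploid libraries. AT2G24870 had 1.48 and 1.06 in suvh7-1, 6.85 and 5.13 in adm-2, 2.54 and 2.16 in peg2, 3.71 and 6.31 in triploid, and 0 and 0.129 in diploid seeds. AT5G27238 had 3.71 and 4.50 in suvh7-1, 7.67 and 7.05 in adm-2, 12.3 and 9.07 in peg2, 8.05 and 9.34 in triploid, and 0.0266 and 0.0578 in diploid seeds. The 3 genes shared a low suvh7-1 value, and AT2G24870 and AT1G51230 had both peg2 libraries below both triploid libraries.

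Other members of the class were EC1.4 (AT4G39340), of the family of small proteins that the egg cell secretes at fertilization, and SCRL5, an SCR-like gene. EC1.4 had an RPKM of 0.665 and 0.801 in suvh7-1, 1.39 and 1.29 in adm-2, 1.73 and 1.80 in peg2, 1.07 and 2.51 in triploid, and 0.331 and 0.320 in diploid seeds. SCRL5 had 4.35 and 4.66 in suvh7-1, 9.71 and 7.03 in adm-2, 12.4 and 8.08 in peg2, 7.84 and 11.5 in triploid, and 0.164 and 0.0892 in diploid seeds.

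**Figure D3:**
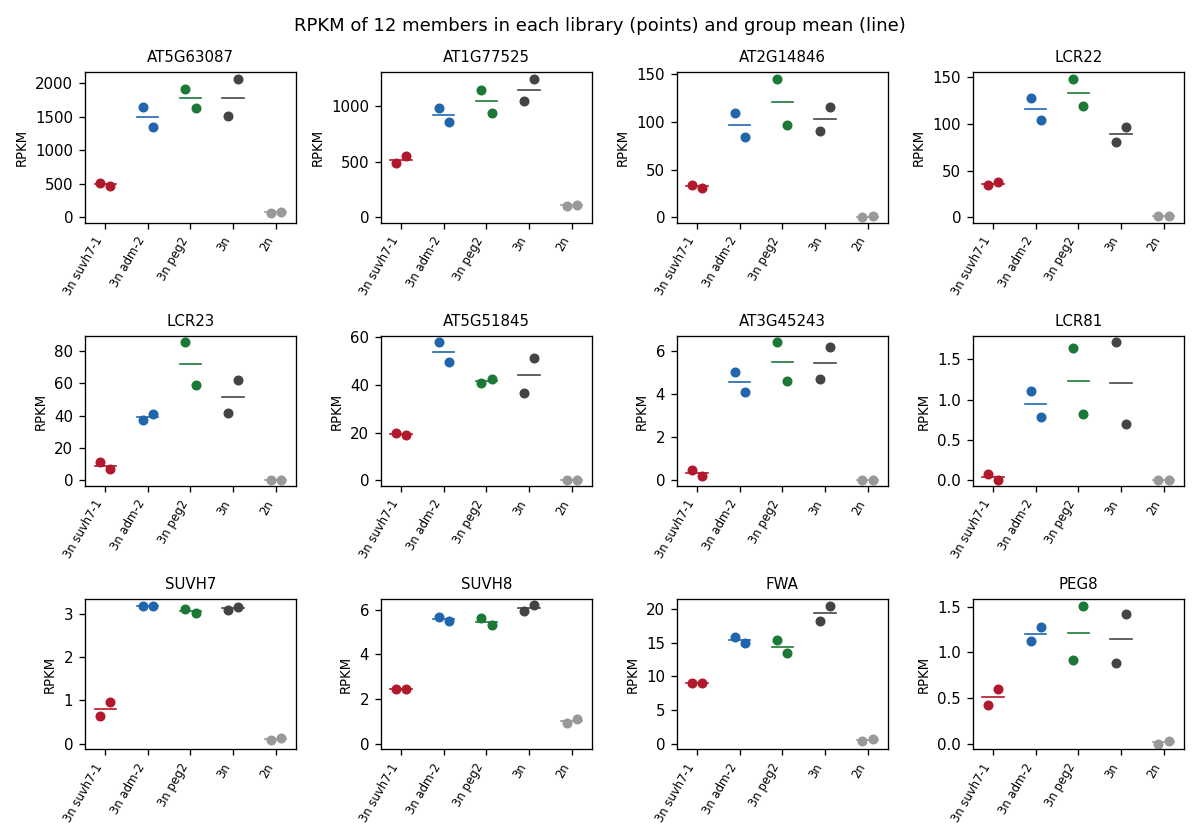
RPKM of 12 members (y axis, 1 panel each, with a scale of its own) in the 2 libraries of each cross (points) and their mean (line), ordered 3n suvh7-1, 3n adm-2, 3n peg2, 3n and 2n. In each panel the red 3n suvh7-1 points lie below those of the other 3 triploid crosses, and for AT5G63087 the gap is 507 and 471 against 1347 or more.

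The secreted small proteins that were not members give the wider frame. Of 677 such genes tested across all libraries with limma (adjusted p under 0.05 and a log2 fold change past 1), 91 were called lower and 31 higher in suvh7-1 than in triploid seeds, against 2.82% and 2.15% of all genes tested. In adm-2 against triploid seeds 28 were called lower and 28 higher, against 0.722% and 2.67% of all genes. Their median log2 values were -0.138 for suvh7-1 and -0.00646 for adm-2 over triploid seeds, beside -0.0412 and 0.0974 over all 26601 genes tested. These figures are a description of the class, since triploid libraries are shared by both comparisons.

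LCR22 and LCR23 were the closest pair of members, 2024 bases apart on chromosome 4 with 1 annotated gene between them. LCR23 had an RPKM of 11.6 and 6.73 in suvh7-1, 37.3 and 41.3 in adm-2, 85.3 and 59.1 in peg2, 41.5 and 62.3 in triploid, and 0.302 and 0.131 in diploid seeds. LCR22 had 34.0 and 37.2 in suvh7-1, 128 and 104 in adm-2, 148 and 119 in peg2, 81.0 and 96.8 in triploid, and 1.21 and 0.787 in diploid seeds. Both adm-2 libraries were above both triploid ones for LCR22 and below both for LCR23. A global alignment placed 187 of 243 columns of the coding sequences printed above as identical (77.0%). A local blastn alignment of LCR22 with LCR21 of the same stretch, which is not a member, gave 86.1% identity over 231 bases. That measure differs from the global share, which counts gap columns.

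The next LCR genes of the stretch were not members. LCR21 (AT4G29283) had 8.58 and 5.45 in suvh7-1, 21.9 and 18.8 in adm-2, 35.99 and 26.7 in peg2, and 26.1 and 32.4 RPKM in triploid seeds, and was listed at 0 in diploid seeds. Its suvh7-1 ratio of 0.243 was within the limit and its adm-2 ratio of 0.697 was not. LCR24 (AT4G29285) had 6.84 and 5.41 in suvh7-1, 13.9 and 12.8 in adm-2, 32.3 and 28.5 in peg2, 26.6 and 40.8 in triploid, and 0.195 and 0.247 RPKM in diploid seeds, with an adm-2 ratio of 0.398. Across these 4 LCR genes the suvh7-1 libraries were thus all below the triploid ones, while the adm-2 ratios covered 0.398 to 1.30. LCR27 (AT4G29300) differed in being lower in triploid than in diploid seeds. It had 4.73 and 3.96 in suvh7-1, 3.48 and 4.67 in adm-2, 7.91 and 7.19 in peg2, 6.78 and 7.38 in triploid, and 34.3 and 36.8 RPKM in diploid seeds. Its suvh7-1 and adm-2 libraries were also below the triploid ones.

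**Figure D4:**
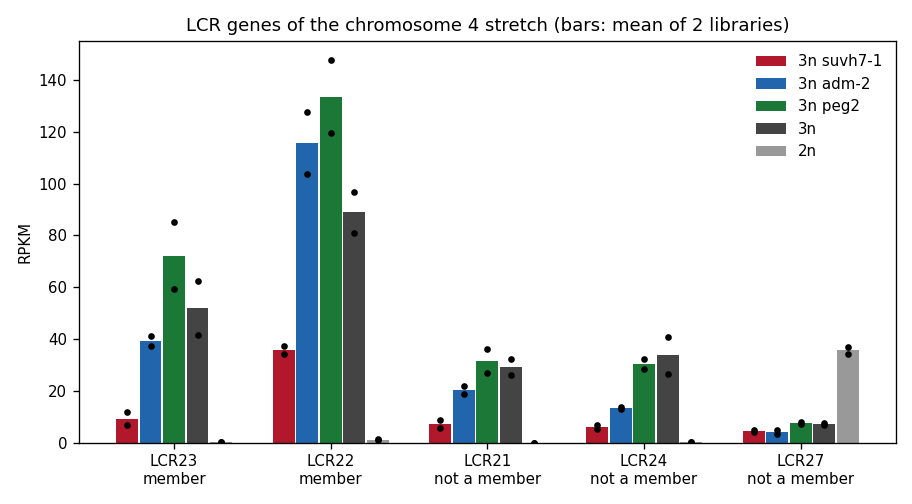
Mean RPKM (bars, y axis) and the 2 libraries (points) of 5 LCR genes in their order along chromosome 4, for 3n suvh7-1, 3n adm-2, 3n peg2, 3n and 2n seeds. The blue 3n adm-2 bars stand above the 3n bar for LCR22 and below it for LCR21 and LCR24, while the red 3n suvh7-1 bars are low in the 4 genes that are high in 3n seeds.

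The 250 bases before the LCR23 and LCR22 genes were also alike, with 188 of 268 alignment columns identical (70.1%). They are shown because these neighbouring members shared the low suvh7-1 values. Capitals mark the 3 runs of at least 15 identical bases in the same order, the longest of 32 bases. The windows are chr4:14425858-14426107 and chr4:14428266-14428515 in TAIR10.1, both on the minus strand.
LCR23 upstream: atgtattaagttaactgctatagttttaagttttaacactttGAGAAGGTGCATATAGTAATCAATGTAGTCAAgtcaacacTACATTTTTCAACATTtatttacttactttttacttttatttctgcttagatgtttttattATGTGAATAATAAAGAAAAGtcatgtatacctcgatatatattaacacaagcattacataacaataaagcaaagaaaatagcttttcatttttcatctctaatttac
LCR22 upstream: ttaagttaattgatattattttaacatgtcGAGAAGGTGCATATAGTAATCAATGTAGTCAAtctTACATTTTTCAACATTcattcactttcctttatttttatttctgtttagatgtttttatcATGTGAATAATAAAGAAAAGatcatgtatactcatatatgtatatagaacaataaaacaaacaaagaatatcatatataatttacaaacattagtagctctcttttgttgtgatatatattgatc
No other pair of members lay closer than 27336 bases. The 75 genes were spread over the chromosomes, with 21, 12, 12, 12 and 17 on chromosomes 1 to 5, for shares of 28.0%, 16.0%, 16.0%, 16.0% and 22.7% beside 24.8%, 16.2%, 19.7%, 15.1% and 22.0% of all genes.

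Before the starts of the 74 annotated members, 8 short motifs were counted in windows of 250 bases on both strands. The window of AT5G63087, the most abundant member, is shown with its 2 N10 CArG boxes in capitals, at chr5:25304500-25304749 on the plus strand in TAIR10.1.
AT5G63087 upstream: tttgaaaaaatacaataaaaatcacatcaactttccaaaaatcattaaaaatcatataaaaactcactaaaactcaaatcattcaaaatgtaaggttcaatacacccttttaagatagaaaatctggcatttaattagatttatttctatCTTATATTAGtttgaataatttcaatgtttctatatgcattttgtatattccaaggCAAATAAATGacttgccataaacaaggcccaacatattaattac
The N10 CArG box, a form of the element bound by MADS-box factors, was found before 31 members (41.9%), against 37.3% of genes raised in triploid seeds and 24.1% of all genes. Upstream sequences of members were 72.6% A and T, like those of all raised genes (72.8%) and above those of all genes (68.4%). The motif overlaps TATA: in 11 of the 31 genes a match contained TATA, and 25 members (33.8%) had a match without it, against 19.2% of all genes. The share without TATA was not counted among raised genes. The CArG box proper stood before 4 members (5.41%), 2.33% of raised genes and 2.34% of all genes. The remaining motifs were TGTAAAG in 6.76% of members and 4.39% of all genes, TGAGTCA in 6.76% and 2.74%, CATGCA in 10.8% and 8.83%, ACGTG in 16.2% and 21.6%, AAACCCTA in 4.05% and 4.75%, and TTGAC in 52.7% and 44.5%. Among raised genes these shares were, in the same order, 5.52%, 2.62%, 7.17%, 16.5%, 4.55% and 50.8%. A match describes letters only.

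SUVH7 (AT1G17770, chr1:6120741-6122822 on the plus strand) was itself a member. Its RPKM was 0.640 and 0.956 in suvh7-1, 3.19 and 3.17 in adm-2, 3.10 and 3.02 in peg2, 3.09 and 3.16 in triploid, and 0.0883 and 0.133 in diploid seeds. As the mutated gene it checks the label of the suvh7-1 libraries, which were lower than those of every other triploid cross. The related gene SUVH8 (AT2G24740, annotated as SDG21) had 2.45 and 2.44 in suvh7-1, 5.68 and 5.50 in adm-2, 5.63 and 5.30 in peg2, 5.96 and 6.23 in triploid, and 0.929 and 1.11 in diploid seeds. SUVH8 overlaps AT2G24735 on the genome. The other 8 SUVH genes were no members, and their ratios of suvh7-1 to triploid seeds were 0.868 to 1.19 in the 7 of them that were expressed.

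The other mutated genes also matched their labels. ADM was 0.251 and 0.237 RPKM in adm-2 seeds, against 2.42 and 4.01 in triploid seeds. PEG2 was 0.238 and 0.0808 in peg2 seeds, against 3.54 and 4.10 in triploid seeds. Both were low in suvh7-1 seeds too, with 0.758 and 0.706 for ADM and 0.646 and 0.605 for PEG2. PEG2 was also lower in adm-2 than in triploid seeds, with 1.34 and 0.908. OSD1 was between 0.864 and 3.35 in the 8 triploid libraries, against 8.83 and 7.02 in diploid libraries. A list of 16 PEGs held 2 members, SUVH7 and PEG8 (AT4G05470). Leaving out these members and the mutated gene of each cross, 7 of 14 PEGs were called lower in suvh7-1, 3 of 13 in adm-2 and 0 of 13 in peg2 than in triploid seeds by limma, against 2.82%, 0.722% and 0.139% of all genes, and 0 were called higher. At an unadjusted limma p under 0.05, 7 of the whole list of 16 passed in peg2 against triploid seeds, 6 of them lower, PEG2 included. Over all genes 2296 of 26601 passed, 1413 of them lower. The whole list holds the members and PEG2, which the counts before it left out. PEG8 had 0.419 and 0.594 in suvh7-1, 1.13 and 1.27 in adm-2, 0.910 and 1.51 in peg2, 0.877 and 1.42 in triploid, and 0 and 0.0335 RPKM in diploid seeds, so adm-2, peg2 and triploid libraries overlapped.

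FWA, a homeodomain gene expressed from the maternal allele in endosperm, had 8.98 and 8.97 in suvh7-1, 15.8 and 14.997 in adm-2, 15.4 and 13.4 in peg2, 18.2 and 20.5 in triploid, and 0.456 and 0.696 RPKM in diploid seeds. Both adm-2 libraries were below both triploid ones, and the adm-2 ratio of 0.797 was near the limit. AT4G16810, annotated with the VEFS box found in Polycomb proteins, had 3.01 and 2.998 in suvh7-1, 6.41 and 6.86 in adm-2, 6.99 and 5.19 in peg2, 6.47 and 8.37 in triploid, and 0.0512 and 0.0833 RPKM in diploid seeds. Of 74 members 0 were classed as MADS-box genes, against 2.23% of raised genes and 0.359% of all genes.

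The class of pectin enzymes and their inhibitors held 2 members of 74 (2.70%), both of them inhibitor family genes. Its share was 0.783% of all genes, 4.55% of raised genes, 10.9% of raised genes at 0.5 or less in both mutants and 0.974% of those above 0.75 in both. AT5G50050 had 37.3 and 39.3 in suvh7-1, 80.8 and 79.3 in adm-2, 71.7 and 83.2 in peg2, 87.4 and 86.6 in triploid, and 4.85 and 5.87 RPKM in diploid seeds. AT1G02550 had 0.150 and 0.422 in suvh7-1, 0.958 and 1.01 in adm-2, 2.43 and 2.26 in peg2, 1.41 and 1.22 in triploid, and 0.0194 and 0.0421 RPKM in diploid seeds. Outside that class AT4G37950, a rhamnogalacturonate lyase that would cleave another pectin backbone, had 3.93 and 3.88 in suvh7-1, 8.86 and 8.01 in adm-2, 10.6 and 11.5 in peg2, 9.31 and 9.50 in triploid, and 0.404 and 0.392 RPKM in diploid seeds.

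Members with other roles included GA20OX5, a gibberellin oxidase, at 10.3 and 11.3 in suvh7-1, 20.4 and 18.8 in adm-2, 23.5 and 24.3 in peg2, 25.7 and 26.3 in triploid, and 0.0732 and 0 RPKM in diploid seeds. AT2G23970, a glutamine amidotransferase-like gene, had 23.2 and 27.5 in suvh7-1, 42.9 and 40.0 in adm-2, 45.5 and 35.8 in peg2, 45.5 and 58.7 in triploid, and 0.860 and 1.03 RPKM in diploid seeds. The F-box gene AT5G03920 had 17.6 and 19.5 in suvh7-1, 36.4 and 31.9 in adm-2, 58.9 and 61.6 in peg2, 37.5 and 49.6 in triploid, and 0.136 and 0.0983 RPKM in diploid seeds. It was among the 9 members with both peg2 libraries above both triploid libraries.

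The remaining genes of low suvh7-1 ratio were weakly expressed. AT5G19240, a glycosylphosphatidylinositol-anchored glycoprotein precursor, had 0.0240 and 0.0476 in suvh7-1, 1.05 and 1.12 in adm-2, 0.895 and 0.324 in peg2, 1.104 and 1.25 in triploid, and 0.0371 and 0.101 RPKM in diploid seeds. VSP2 had 0.339 and 0.240 in suvh7-1, 2.11 and 2.27 in adm-2, 0.542 and 2.04 in peg2, 1.86 and 2.65 in triploid, and 0.178 and 0.580 RPKM in diploid seeds. For both genes suvh7-1 and diploid libraries overlapped. Over all 75 genes the triploid mean was at least 100 RPKM in 5, between 10 and 100 in 15 and under 10 in 55, of which 21 were under 2. The lowest value in a suvh7-1 library stood for fewer than 20 estimated reads in 15 of 74 genes.

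Seeds from peg2 pollen were not used to choose the genes, but the triploid and diploid libraries they are set against were. Across the 75 genes the ratio of peg2 to triploid seeds had a median of 0.909, with a range of 0.177 to 1.77, and 56 genes were above 0.75. The median over the 1035 raised genes was 0.975. By limma over 26601 genes, 0 of 75 members were called lower and 0 higher than in triploid seeds (adjusted p under 0.05, log2 fold change past 1), against 0.139% and 0.0677% of all genes tested. At an unadjusted p under 0.05, 13 members passed, 8 of them lower in peg2, beside 2296 of all genes, 1413 of them lower. The rank product called 1 member, AT3G01240, lower and 0 higher, against 0.257% and 0.0463% of all genes. The median log2 fold change of the members was -0.14, beside -0.0168 over all genes.

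In a further version only 1 triploid replicate chose the genes and the other was used in the fit. The median log2 fold change in peg2 against triploid seeds was then -0.22 over 85 genes and -0.0441 over 90 genes. Both peg2 libraries were below both triploid ones for 25 of 75 genes, against 19.7% of all genes, and above for 9, against 12.1%. Both peg2 libraries were above both suvh7-1 libraries for 71 members, against 28.8% of all genes, although low suvh7-1 values were part of the choice. Against diploid seeds 73 of 75 members were called higher in peg2 seeds, against 9.1% of all genes. Members had to be at least 4 times above the same diploid libraries in triploid seeds, so the choice fixed much of this count. The median log2 fold change of the members was 3.85. The rank product called 10 members higher, against 0.56% of all genes. The 2 members that limma did not call were AT3G01240 and VSP2.

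**Figure D5:**
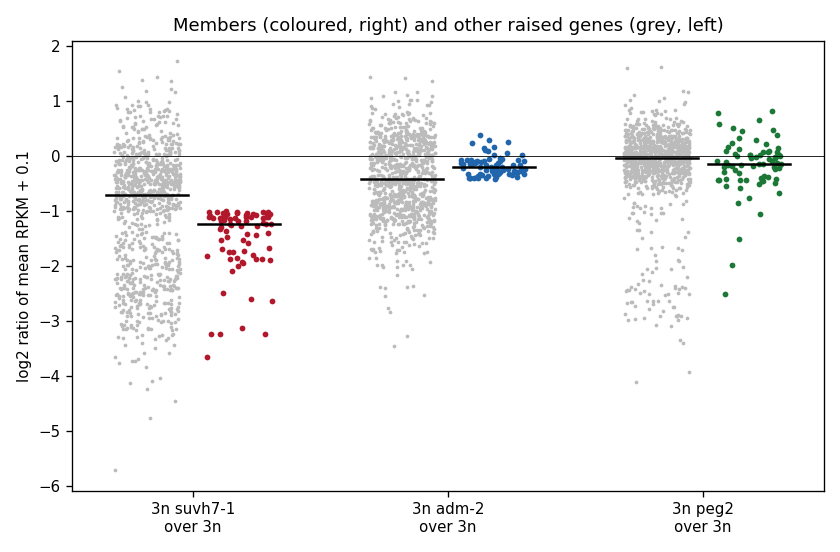
Log2 ratios of mean RPKM + 0.1 (y axis) to 3n seeds in 3n suvh7-1, 3n adm-2 and 3n peg2 seeds, with the 75 members in colour on the right and the other 960 raised genes in grey on the left of each pair, and medians as black lines. The first 2 colour groups are bounded by the choice of genes, while the 3n peg2 ratios, which it did not use, spread around a median ratio of 0.909 with 4 genes at 0.5 or less.

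The 4 genes at 0.5 or less in peg2 were AT3G01240, AT5G50830, AT3G43530 and AT2G24870. AT3G01240, annotated as a splicing regulatory glutamine/lysine-rich-like protein, had 0.248 and 0.629 in suvh7-1, 3.99 and 3.75 in adm-2, 1.01 and 0.447 in peg2, 4.65 and 4.51 in triploid, and 0.256 and 1.20 RPKM in diploid seeds. Its log2 fold change in peg2 against triploid seeds was -2.59 (SE 0.61), lower in 2 of 2 libraries, with a limma adjusted p of 0.205 (0.0603 to 0.622 over the alternatives). AT5G50830, annotated as a nuclear polyadenylated RNA-binding protein, had 0.151 and 0.259 in suvh7-1, 1.43 and 1.51 in adm-2, 0.388 and 0.371 in peg2, 2.32 and 1.27 in triploid, and 0.0852 and 0.208 RPKM in diploid seeds. Its log2 fold change was -1.92 (SE 0.35), lower in 2 of 2 libraries, with a limma adjusted p of 0.105 (0.0603 to 0.441 over the alternatives).

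The uncharacterized gene AT3G43530 had 0.306 and 0.235 in suvh7-1, 1.15 and 0.768 in adm-2, 0.262 and 0.489 in peg2, 1.20 and 1.29 in triploid, and 0.0994 and 0.0249 RPKM in diploid seeds. Its log2 fold change in peg2 was -1.54 (SE 0.33) with a limma adjusted p of 0.164 (0.0549 to 0.418 over the alternatives), and that of AT2G24870 was -1.01 (SE 0.41) with an adjusted p of 0.546 (0.288 to 0.868). In these 4 genes all suvh7-1 and peg2 libraries were below all triploid libraries, and only in AT3G01240 and AT3G43530 were both adm-2 libraries below them too. VSP2, with a log2 fold change of -0.99 (SE 0.58) and a limma adjusted p of 0.714, was the fifth lowest. Its log2 fold change was -0.12 without peg2 replicate 1 and -1.85 without peg2 replicate 2.

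At the other end AT1G22420, a hydroxyproline-rich glycoprotein gene, had 0.810 and 0.339 in suvh7-1, 1.97 and 2.69 in adm-2, 4.67 and 4.603 in peg2, 2.68 and 2.48 in triploid, and 0.0294 and 0.0213 RPKM in diploid seeds. Its log2 fold change in peg2 against triploid seeds was 0.82 (SE 0.32, limma adjusted p = 0.530), higher in 2 of 2 libraries. AT1G02550, AT2G13295 (lipid-transfer family), LCR22 and NPC3 followed with 0.79, 0.65, 0.58 and 0.52, at limma adjusted p between 0.430 and 0.585. NPC3 had 3.95 and 5.13 in suvh7-1, 9.20 and 8.34 in adm-2, 12.4 and 13.8 in peg2, 7.69 and 10.7 in triploid, and 0.667 and 1.04 RPKM in diploid seeds. None of these 5 higher values passed the threshold, although the peg2 and triploid libraries did not overlap in any of them.

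Replicates are separate seed pools, and p-values measure the spread between such pools. The libraries were alike in depth, with estimated read numbers, in units of 1e6, of 53.6 to 70.7 from the step between low RPKM values, 24106 to 25085 genes above 0 and correlations between replicates of 0.990 to 0.996 across genes.

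The composition of the set depended on single libraries. Chosen on the replicates numbered 1 alone, 109 genes met all limits, and in the replicates numbered 2 the suvh7-1 limit held for 87 of them, the adm-2 limit for 45 and all limits for 24. Chosen on the replicates numbered 2, 62 genes met the limits, and in the replicates numbered 1 the suvh7-1 limit held for 38, the adm-2 limit for 49 and all limits for 24. The 24 shared genes were 22.0% of the first list and 38.7% of the second. In the replicate not used for the choice, suvh7-1 was below triploid seeds for 107 of 109 genes and 59 of 62. With both replicates, 15097 of 26601 genes tested had a suvh7-1 log2 fold change below 0. The 1035 raised genes had a median suvh7-1 ratio of 0.574, so values below triploid seeds were common among them as well.

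The triploid libraries differed between themselves. The value was higher in replicate 2 than in replicate 1 for 62 of 75 members, and median-of-ratios size factors were 0.932 and 1.04 for these libraries. The part of this difference in the choice of genes was not tested beyond leaving libraries out. Without triploid replicate 1 the limits chose 90 genes, 50 of them among the 75, and without replicate 2 they chose 85, with 46 among the 75. Of the 75 genes, 22 stayed in the set whichever of the 8 libraries was left out. These included 6 secreted small proteins, AT1G73560, AT2G14846, LCR22, AT2G24870, AT1G51230 and LCR72, beside AT5G50050, FWA, SUVH7, SUVH8, AT4G16810 and AT4G37950. AT5G63087 and AT1G77525 were not among the 22.

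Whole seeds were sequenced, so fewer cells of a type and less RNA per cell cannot be told apart. Endosperm markers (6 of 6 genes reaching 1 RPKM, FWA among them) summed to 198 to 199 in suvh7-1, 217 to 219 in adm-2, 181 to 184 in peg2, 219.5 to 226 in triploid, and 144 to 156 RPKM in diploid libraries. These sums combine genes that differed in direction. The mean of AGL62 was 1.87 in suvh7-1 and 6.35 in triploid seeds, that of PHE1 99.5 and 134, and that of FWA 8.97 and 19.4 RPKM. By contrast SUC5 had 68.2 in suvh7-1 and 46.8 in triploid seeds, ZOU 10.5 and 7.29, and ALE1 9.43 and 8.55 RPKM. Embryo markers (3 of 4 reaching 1) summed to 136 to 157 in suvh7-1, 130.0 to 131.5 in adm-2, 58.5 to 80.8 in peg2, 66.7 to 90.3 in triploid, and 216 to 225 RPKM in diploid libraries. Embryo markers were thus higher in suvh7-1 and adm-2 alike than in triploid seeds, and their part in the values of the 75 genes was not tested. Seed coat markers (5 of 5 reaching 1) summed to 1557 to 1633 in suvh7-1, 1457 to 1488 in adm-2, 2026 to 2091 in peg2, 1587 to 2045 in triploid, and 1150.0 to 1267 RPKM in diploid libraries. Pollen genes (13 of 30 reaching 1, 6 never above 0.1, DUO1 at 0 in all libraries) summed to 11.4 to 12.5 in suvh7-1, 21.9 to 22.5 in adm-2, 12.95 to 13.3 in peg2, 23.0 to 32.1 in triploid, and 16.6 to 18.9 RPKM in diploid libraries. No pollen, embryo or seed coat marker was a member, and the part of the pollen genes' lower sum in suvh7-1 seeds was not tested.

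Reads of the unstranded libraries cannot be assigned to a strand, and 7 members overlap another annotated gene: AT1G63055, FWA, AT2G17500, SUVH8, AT1G29670, AT1G77932 and IREG2. Their values are uncertain to that extent. Copies were searched for the 71 members with a coding sequence. None of these had a copy with 95% identity or more in the coding sequences of other genes. The closest was AT5G39645 at 91.9% over 173 bases of AT4G14276. With at most 1 alignment kept per read, reads of such pairs could still be exchanged.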

How the data were processed

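RNA was extracted from whole seeds, and unstranded libraries were sequenced. The authors mapped reads to TAIR10 with TopHat2 2.0.10 and allowed a read no more than 1 alignment. They deposited an RPKM value for each gene in each library. The tool that made the RPKM values is not given in the sources used here. All 10 libraries were analysed, 2 for each of 5 crosses.

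The members and gene lists were chosen with earlier results of these data known. Tests used log2(RPKM + 0.1) and limma 3.58.1 (R 4.3.3) on 26601 genes (those over 0 in 2 or more libraries), with all 5 groups in the fit, Benjamini-Hochberg adjustment over all genes, and calls at an adjusted p under 0.05 and a log2 fold change past 1. Fold changes on this scale understate changes of low genes. The rank product, the method of the study, was an alternative over 28055 genes. Both were run on simulated data in which only changes larger than the fold change limit were added, and only to genes above low levels. Those runs do not cover smaller changes or weakly expressed genes. Further tools were Python 3.11.15, numpy 2.4.6, pandas 2.3.3, scipy 1.17.1, matplotlib 3.10.9 and blastn 2.17.0.

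Genes named were the mutated genes, members on the lists, the 10 highest members, the 10 with the lowest suvh7-1 ratio, the 5 lowest and 5 highest in peg2, up to 8 members of the secreted and pectin classes, and genes at each limit. Others, such as SUVH8, GA20OX5, AT4G16810, AT4G37950, AT5G27238, AT1G51230, SCRL5, EC1.4, and the LCR genes of chromosome 4, were chosen after their values were seen. Coordinates and sequences come from TAIR10.1 with the RefSeq annotation, which held 74 of the 75 members.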

Additional observations from a re-analysis of the deposited data

How the results depend on the processing

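With a pseudocount of 1 the limits chose 32 genes (27 of them among the 75), and with stricter limits of 0.4 and 0.9 they chose 13. With a pseudocount of 0.01 they chose 79 (72 shared), after rescaling by size factors 53 (51 shared), and without any 1 of the 8 libraries used 64 to 91. Rescaling moved the median of all genes by 0.0858 on the log2 scale at most, in adm-2 seeds. In peg2 against triploid seeds 0 members were called lower or higher under all alternatives run except the rank product, which called 1 lower, and the median log2 fold change was -0.222 to -0.0594 with a library left out. In peg2 against diploid seeds, where the choice of genes fixed much of the count, the rank product called 10 members higher. The median log2 fold change there was 2.08 with a pseudocount of 1, 5.02 with 0.01, 4.38 over the 60 members whose mean RPKM reached 1, and 3.70 to 4.10 with a library left out, at the upper end without diploid replicate 2. The log2 fold change of PEG8 (AT4G05470) in peg2 against triploid seeds was 0.0639, and -0.27 without peg2 replicate 2 and -0.26 without triploid replicate 1. The cause of these changes was not tested. Low values limit the set, since 21 members had a triploid mean under 2 RPKM.

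Replicate numbers were shared between crosses, but deviations of same-numbered libraries correlated at -0.173 between peg2 and triploid seeds and at -0.202 between peg2 and diploid seeds across genes, so they were not taken as pairs. With a replicate block 0 members were called lower and 0 higher in peg2 than in triploid seeds, and 73 higher than in diploid seeds. With the peg2 numbers crossed, an alternative chosen after seeing the data, 72 members were called higher than in diploid seeds and 0 lower or higher than in triploid seeds.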
